A study of Homo sapiens with 2 samples.

Results

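The genes studied here are the CDK inhibitors and the G1 cyclins and kinases that they restrain. The set was fixed by name as 10 genes: the inhibitors CDKN1A, CDKN1B, CDKN2A and CDKN2C, the cyclins CCND1, CCND3 and CCNE1, and the kinases CDK2, CDK4 and CDK6. Every probe that the platform annotation assigns to one of these names was taken, which gave 16 probes for 9 genes, out of 18665 named genes on the array. CDKN2C, an inhibitor of the INK4 class, has no expression value here and enters only the description of promoter sequences.

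The arrays compare a stable puromycin-selected KYN2 line carrying an shRNA plasmid against HSF1 with a KYN2 line labelled as control, at 1 Illumina HumanWG-6 BeadChip each. KYN2 is an established human hepatocellular carcinoma line, and HSF1 is the transcription factor that switches on chaperone genes when proteins misfold. The labels name 1 shRNA target sequence and do not say what the control line carried, whether either line was 1 clone, or how many cultures were sampled. With 2 arrays in all there is no replicate of either line, no p-value is given, and a difference between these lines cannot be told apart from a difference between 2 cultures.

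In G1, D-type cyclins bind CDK4 or CDK6, and cyclin E binds CDK2. These complexes phosphorylate RB and related pocket proteins, which frees E2F factors to switch on the genes of S phase. INK4 inhibitors, among them the CDKN2A product p16, bind CDK4 and CDK6, whereas the CIP/KIP inhibitors p21 (CDKN1A) and p27 (CDKN1B) bind assembled cyclin-CDK complexes. In liver tumours cyclin D1 is often raised and CDKN2A is often silenced.

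The signal is the bead intensity as deposited. Levels and differences are log2 values after background correction and quantile normalization, and a difference is the array labelled HSF1 knockdown minus the control array. A probe counted as detected at a detection p under 0.01, and a gene was represented by its brightest probe. A gene detected on both arrays was called higher or lower at a difference of at least 2-fold. Across 1352 genes with exactly 2 detected probes, the single-probe SD of the difference, estimated from how far the probes of a gene disagreed, was 0.34 on the log2 scale. It was 0.41 in the dimmest tercile of these genes and 0.25 in the brightest. It measures error between probes only, with nothing of the spread between cultures.

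Signals ran from 36.3 to 24818.2 on the knockdown-labelled array and from 36.4 to 23895 on the control array. Of 48802 probes, 12200 were detected on the knockdown-labelled array and 11707 on the control array. The brighter probe of the targeted gene, HSF1, had a signal of 58.2 on the knockdown-labelled array, against 164.3 on the control array. Its deposited detection p was 0 on the knockdown-labelled array, where 459 other probes with signals within 0.1 of 58.2 had a detection p between 0.236 and 0.246. On the control array its detection p was 0.00527, so its detection values ran opposite to its signals. A CDKN1A probe with a lower control-array signal, 129.5, had a detection p of 0.00395 there. The second HSF1 probe had signals of 81.3 on the knockdown-labelled array and 77.9 on the control array, undetected on both. The targeted gene therefore did not settle the label, and each direction below rests on the label alone. The detection values of all 16 probes of the CDK and cyclin genes lay within those of other probes of similar signal. Of 10 hepatocyte marker genes, 7 were detected on both arrays, with albumin at 20949.9 on the knockdown-labelled array and 19292.5 on the control array. Of these 7, APOB was 3.75-fold lower, at 631.8 on the knockdown-labelled array and 2566 on the control array, and 6 lay within 2-fold. AFP and TTR passed detection only on the knockdown-labelled array and FGB only on the control array. Of 7 myeloid markers, LYZ and CD14 passed detection only on the knockdown-labelled array, CD68 was detected on both, and PTPRC and the other 3 were detected on neither. The summed signal of the myeloid list was 1492.5 on the knockdown-labelled array and 889.3 on the control array, and its part in the differences below was not tested. None of 16 lymphoid, fibroblast and endothelial markers was detected on either array.

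All 9 measured genes were detected on both arrays, and 13 of their 16 probes were. CDKN1A was 10.3-fold higher on the knockdown-labelled array, the cyclin genes CCNE1 and CCND1 were 2.63-fold and 2.13-fold lower, and the other 6 genes lay within 2-fold. The 1 gene called higher stands beside 9.89% of all 7511 genes detected on both arrays, and the 2 called lower beside 10.4%. Of the 6 cyclin and kinase genes 5 lay below 0 and 1 above, beside 53.3% of all genes below 0 and 46.7% above. Their median difference was -0.68, whereas that of the 3 inhibitors was 0.64. The median over the 9 genes was -0.43, and that over all genes detected on both arrays was -0.06, with quartiles at -0.52 and 0.46. These counts describe a pair of arrays, and the spread of all genes is the only yardstick they offer beyond probe error.

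**Figure D1:**
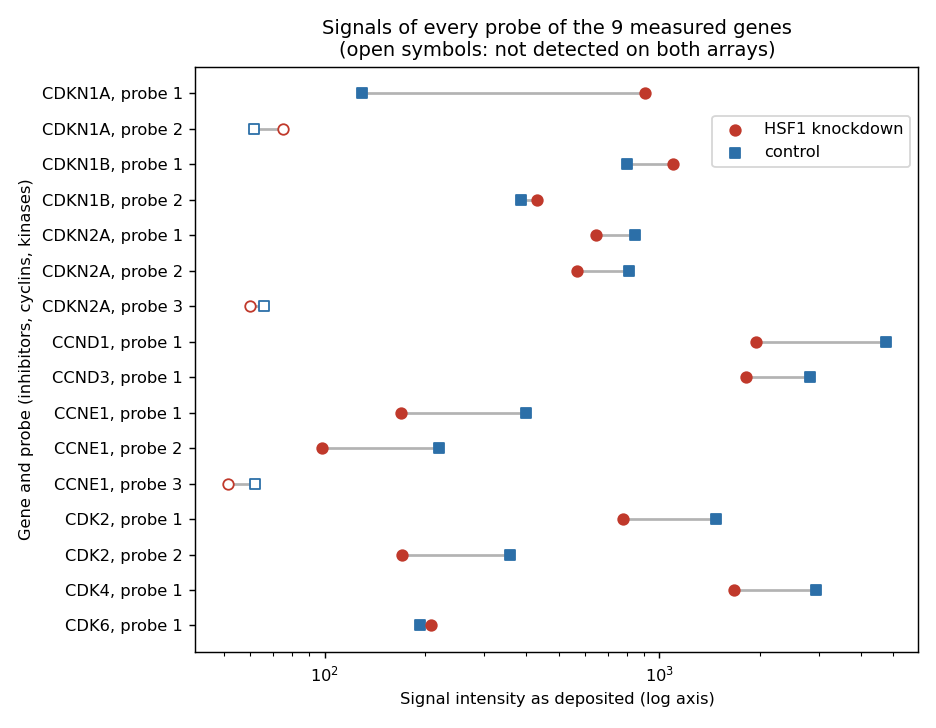
Signal intensity as deposited (log axis) of each of the 16 probes, with the HSF1 knockdown-labelled array as red circles and the control array as blue squares; open symbols mark probes not detected on both arrays. The brighter CDKN1A probe sits at 906.2 on the knockdown-labelled array and 129.5 on the control array, whereas every detected cyclin, CDK2 and CDK4 probe lies further left on the knockdown-labelled array.

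The promoters of CDKN1A, which rose most, and CCNE1, which fell most, are shown because they are the ends of the range. They are RefSeq sequences of GRCh38.p14 that run from 250 bases before the annotated start to 50 bases from it, written 5′ to 3′ on the gene's strand. The CDKN1A window is chr6:36678464-36678763, plus strand, and the CCNE1 window is chr19:29811741-29812040, plus strand. Capitals mark each GGGCGG, the core of a GC box that Sp1 family factors bind, read on either strand, so that CCGCCC is the same motif reversed.
CDKN1A: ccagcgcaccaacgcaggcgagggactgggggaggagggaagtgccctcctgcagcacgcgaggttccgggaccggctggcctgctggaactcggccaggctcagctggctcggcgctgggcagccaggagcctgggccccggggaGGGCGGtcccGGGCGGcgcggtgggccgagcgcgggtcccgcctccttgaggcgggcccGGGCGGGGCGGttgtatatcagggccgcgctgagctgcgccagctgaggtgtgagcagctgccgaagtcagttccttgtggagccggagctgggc
CCNE1: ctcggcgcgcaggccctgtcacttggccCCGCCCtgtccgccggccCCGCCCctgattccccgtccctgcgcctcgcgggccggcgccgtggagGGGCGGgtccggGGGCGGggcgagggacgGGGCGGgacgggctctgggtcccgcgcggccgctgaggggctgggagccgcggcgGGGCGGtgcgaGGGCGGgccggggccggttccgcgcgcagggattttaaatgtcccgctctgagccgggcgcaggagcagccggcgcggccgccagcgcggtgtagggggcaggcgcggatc
The CDKN1A window held 4 such motifs, 2 of which overlap by 1 base, and the CCNE1 window held 7. The motif was present in 10 of 14 windows of the 8 genes that had an entry, and in 45.0% of all 35116 windows. Of the 14 gene windows, 3 belonged to the unmeasured CDKN2C. The gene windows were also richer in G and C, with a median of 68.8% against 58.7%. CCND1 and CDK2 had no entry in the table. Heat shock factors bind inverted repeats of GAA, written here as TTCNNGAA or GAANNTTC, which read the same on both strands. Either was present in 13.5% of all windows and in 1 of the 14, in CCND3, with its first base 207 bases before the start at chr6:41941759-41942058, minus strand. The E2F motifs TTTGGCGC and TTTCGCGC, read on both strands, were present in 1.15% of all windows and in 0 of the 14. TATAAA, read on both strands, was present in 11.5% of all windows and in 0 of the 14. A match is a description of letters in these windows only, and the absence of a match says nothing of the factor.

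CDKN1A, the p21 inhibitor that p53 is best known for switching on, had the largest difference of the set. Its brighter probe had a signal of 906.2 on the knockdown-labelled array, against 129.5 on the control array. After correction and normalization its level was 9.84 on the knockdown-labelled array and 6.47 on the control array, a difference of 3.36. That difference ranked 17th from the highest among 7511 genes. On the control array the probe lay near the limit of detection, with a detection p of 0.00395, so the background correction bears on the size of the fold. In the authors' processed values the difference of the same probe was 2.86. A second CDKN1A probe, annotated to the same transcript, had signals of 74.9 on the knockdown-labelled array and 61.4 on the control array. It was detected on neither array, with detection p values of 0.0316 and 0.224 in that order, and the CDKN1A difference therefore rests on 1 probe.

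CDKN1B, which encodes p27, was higher on both its probes, within 2-fold. The brighter probe had a signal of 1096.1 on the knockdown-labelled array and 797.2 on the control array, a difference of 0.64. The other had 431.9 on the knockdown-labelled array and 385.4 on the control array, a difference of 0.30. The gap between the probes, 0.35, was below the SD of 0.48 that probe error gives for the gap of a pair. The brighter value was 1.92 times the single-probe SD, and 81.1% of genes had a lower difference.

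CDKN2A encodes p16 and, from another first exon and reading frame, ARF, which restrains MDM2. Both its detected probes lay slightly below 0. The brighter probe had a signal of 645.8 on the knockdown-labelled array and 846.6 on the control array, a difference of -0.26. The second, which the annotation lists under the ARF transcript, had 567.7 on the knockdown-labelled array and 811.1 on the control array, a difference of -0.41. Both differences were near the single-probe SD, and which transcripts the probes bind was not determined. The remaining probe was detected on neither array, at 59.8 on the knockdown-labelled array and 66 on the control array. CDKN2A was well detected in both lines.

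**Figure D2:**
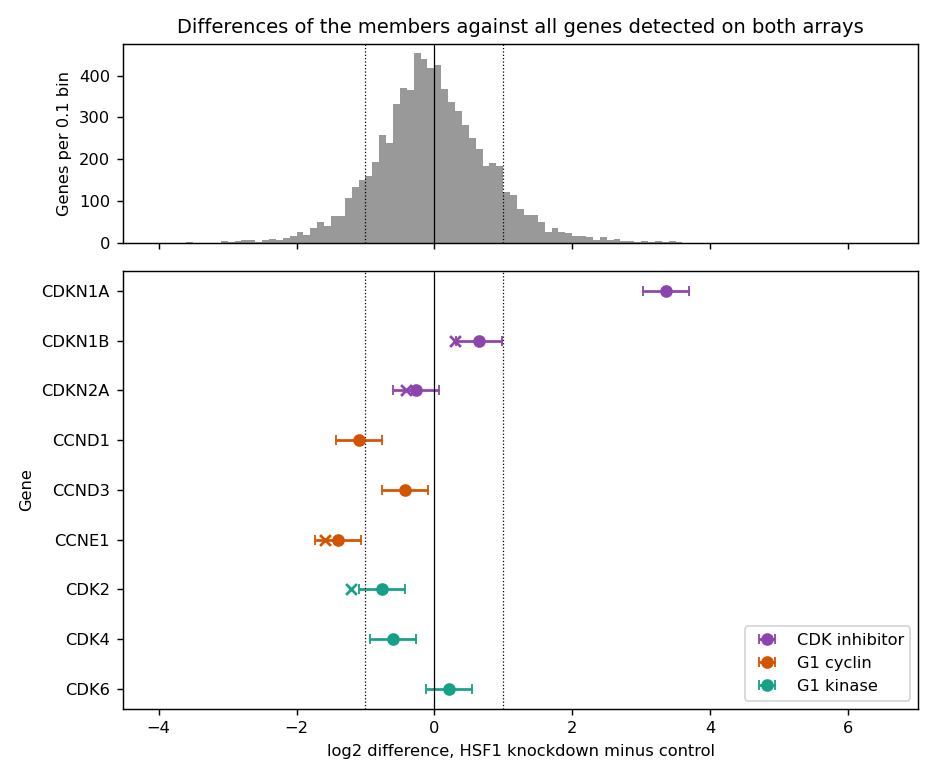
Upper panel, histogram of the log2 difference (HSF1 knockdown-labelled minus control) over 7511 genes detected on both arrays; lower panel, the 9 genes coloured by role, with circles for the brightest probe, bars of 1 single-probe SD (0.34) either side, crosses for other detected probes, and dotted lines at 2-fold. CDKN1A lies at 3.36 and CCNE1 at -1.40, whereas the bars of CDKN2A and CDK6 cross 0.

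The 3 cyclin genes all lay below 0, over 4 detected probes. CCNE1, the cyclin that activates CDK2 at the entry to S phase, was lowest. Its brightest probe had a signal of 169.5 on the knockdown-labelled array and 399.4 on the control array, a difference of -1.40. A second probe had 98.2 on the knockdown-labelled array and 220.1 on the control array, a difference of -1.59, so that both detected probes passed 2-fold. The 98.2 lay close to the limit of detection, with a detection p of 0.00527. The remaining probe was detected on neither array, at 51.5 on the knockdown-labelled array and 61.8 on the control array. Of all genes detected on both arrays, 4.29% had a lower difference than CCNE1.

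CCND1, the D-type cyclin that growth factor signals induce, had the brightest probe of the set on the control array. Its single probe had a signal of 1939.7 on the knockdown-labelled array and 4736.8 on the control array, a 2.44-fold ratio of raw signals. The normalized difference was -1.09, or 2.13-fold lower and -3.25 in units of the single-probe SD, and 8.52% of genes were lower still. CCND3, the second D-type cyclin of the set, had 1810.5 on the knockdown-labelled array and 2822.7 on the control array. Its difference of -0.43 was -1.27 in units of the single-probe SD and within 2-fold. The cyclin D genes were measured by 1 probe each, so neither has a check by another probe. The gap between them, 0.67, was 1.40 times the SD of 0.48 that probe error gives for such a gap.

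Among the kinases CDK2 and CDK4 were lower, within 2-fold by the brightest probe, and CDK6 lay near 0. CDK2, the partner of cyclins E and A, had a signal of 780.4 on the knockdown-labelled array and 1476.1 on the control array by its brightest probe, a difference of -0.76. Its second probe had 170.2 on the knockdown-labelled array and 357.7 on the control array, a difference of -1.21, so that whether CDK2 passed 2-fold depended on the probe. The gap between them, 0.45, was again below that SD of 0.48. CDK4, a partner of D-type cyclins, had 1670.9 on the knockdown-labelled array and 2927.4 on the control array, a difference of -0.60 on its only probe. CDK6, the other partner of D-type cyclins, had 207.5 on the knockdown-labelled array and 192.4 on the control array, a difference of 0.21 on its only probe. In units of the single-probe SD these values were -2.27 for CDK2, -1.80 for CDK4 and 0.63 for CDK6. The differences thus ran in the order CCNE1, CCND1, CDK2, CDK4, CCND3, CDKN2A, CDK6, CDKN1B and CDKN1A from lowest to highest. Neighbours in this order differed by 0.16 to 0.47, less than the SD of 0.48 for a pair of probes, except CDKN1B and CDKN1A, which were 2.72 apart.

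**Figure D3:**
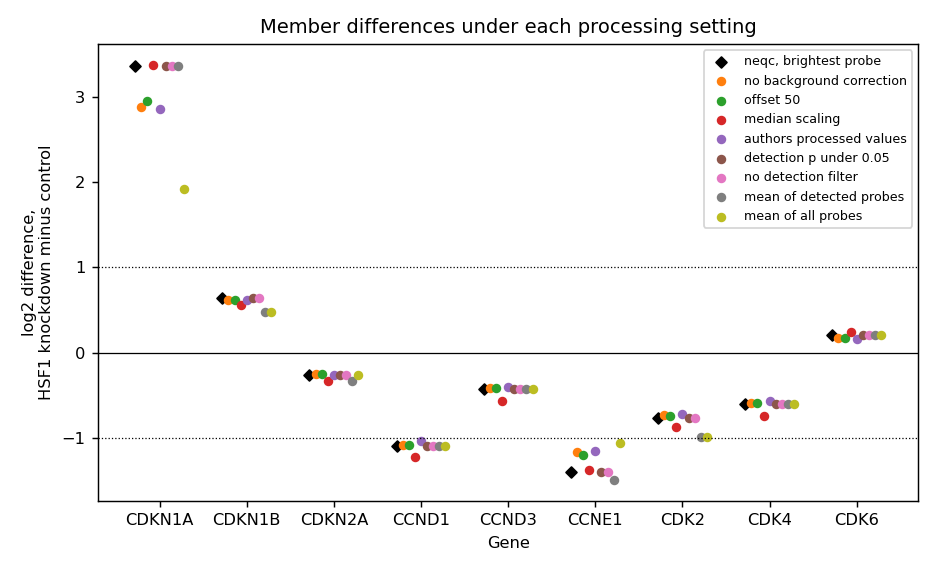
Log2 difference (HSF1 knockdown-labelled minus control) of each of the 9 genes under 9 processing settings, with black diamonds for the setting used in the text and dotted lines at 2-fold. Each gene keeps its side of 0 under all of them, although the detection settings reuse the levels of the setting used in the text. CDKN1A is lowest, at 1.93, when its undetected probe is averaged in.

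The inhibitors outside the set gave 1 call. This count and those of the lists below stand beside 9.89% of all genes detected on both arrays called higher and 10.4% called lower. Of 4 detected on both arrays 1 was higher, 0 were lower and 3 lay within 2-fold. CDKN2B, which encodes the INK4 inhibitor p15, had a signal of 543.2 on the knockdown-labelled array and 271.1 on the control array, a difference of 1.23, and its 2 detected probes lay at 1.23 and 1.28. CDKN2D, the INK4 inhibitor p19, was at 0.81 and CDKN3, a phosphatase that acts on CDKs, at -0.21. CDKN1C, the third CIP/KIP inhibitor, was detected on neither array. CDKN2A and CDKN2B are adjacent protein-coding genes on chromosome 9, with MTAP, an enzyme of the methionine salvage pathway, next to CDKN2A on the other side. MTAP had a signal of 129.8 on the knockdown-labelled array and 528.3 on the control array, a difference of -2.38, so that the 3 adjacent genes ranged from -2.38 for MTAP through -0.26 for CDKN2A to 1.23 for CDKN2B.

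Other cyclin genes were in part below detection. CCND2 and CCNE2, the paralogues of the measured D and E cyclins, were detected on neither array. Of the other G1 cyclins and related genes 2 were detected on both arrays and lay within 2-fold, CCNG1 at 0.60 and CABLES1 at -0.14. CCNG2, a cyclin of arrested cells, was found on the knockdown-labelled array alone and was at least 2.45-fold higher there. Of 5 cyclin and kinase genes of S, G2 and M phase detected on both arrays, 4 were lower, 0 higher and 1 within 2-fold, beside the 10.4% of all genes called lower. They were CCNA2 (-1.36), the cyclin that follows cyclin E on CDK2, CCNB2 (-1.25), a cyclin of mitosis, CCNF (-1.15) and the kinase gene CDK1 (-1.03), while CCNB1 lay at -0.27. Of 8 genes that activate or restrain CDKs by phosphorylation 3 were lower, 0 higher and 5 within 2-fold. The lower ones were PKMYT1 (-1.72), an inhibitory kinase of CDK1, and the activating phosphatases CDC25A (-1.28) and CDC25C (-1.08). PKMYT1 lay near the limit of detection on the knockdown-labelled array, at a level of 5.74 where the lowest detected level was 5.70. WEE1, the other inhibitory kinase of the list, lay at 0.82.

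The pocket proteins and the E2F and DP factors, on which the G1 kinases act, were detected in part on 1 array only. Of 9 detected on both arrays, 0 were called, with a median of 0.61. That median leaves out 3 genes that failed detection on the knockdown-labelled array, where they were lower, and 1 lower gene was called at a detection p under 0.05 and 3 with no detection filter. E2F5 lay at 0.84, TFDP2 at 0.82 and RB1, the retinoblastoma gene, at 0.77. RBL1, E2F7 and E2F8 passed detection only on the control array, and the knockdown-labelled array was lower by at least 2.08-fold, 2.50-fold and 1.40-fold in that order. Of 16 genes of the ubiquitin ligases that degrade cyclins and inhibitors, and of their cofactors, 1 was lower, 0 higher and 15 within 2-fold. The lower one was CUL1 (-1.16), the scaffold of the ligase that degrades p27 and cyclin E, followed by RNF123 (-0.98), of another p27 ligase, and PCNA (-0.79, and -1.19 by its second probe), the clamp on which p21 is degraded. DTL, of the ligase that degrades p21 there, passed detection only on the control array, with the knockdown-labelled array at least 1.94-fold lower. Of the 16 genes, 6 lay above 0 and 10 below. FBXW7 lay at 0.76 and SKP1 at 0.24, while SKP2 lay at -0.002 by its brightest probe and down to -0.85 by another.

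CDK4 and CDK6 fold as clients of HSP90 and its kinase co-chaperone CDC37. Of 8 such chaperone genes detected on both arrays, 1 was lower, 0 higher and 7 within 2-fold, with a median of -0.74. FKBP5, a co-chaperone best known from steroid receptors, was lowest at -2.63, followed by HSP90AB1 (-0.83) and FKBP4 (-0.80). CDC37 had a signal of 6558.9 on the knockdown-labelled array and 8371.3 on the control array, a difference of -0.25; it is named here after its value was seen.

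Other p53 targets and regulators of CDKN1A were called in both directions. Of 12 other p53 targets detected on both arrays, 3 were higher, 1 lower and 8 within 2-fold, with a median of 0.10. GDF15 (1.96), a secreted stress factor, PERP (1.69), a membrane protein of desmosomes, and GADD45A (1.64), an arrest gene of DNA damage, were higher, and AEN (-1.78), a nuclease of apoptosis, was lower. PMAIP1 and TP53INP1 passed detection only on the knockdown-labelled array and were at least 1.95-fold and 1.79-fold higher there, and SESN2 passed there alone with no bound above 1. Of 7 regulators of p53, 2 were lower, 0 higher and 5 within 2-fold, with the checkpoint kinases CHEK1 (-1.73) and CHEK2 (-1.33) lower and the phosphatase PPM1D at 0.98. Of 17 other transcription factors known at the CDKN1A promoter, 2 were higher, 0 lower and 15 within 2-fold. FOXO1 (1.44) and FOXO3 (1.19), which are known to drive CDKN1A and CDKN1B, were higher, and TFAP2A lay at -0.81 by its brightest probe and at 0.01 by its other detected probe. The FOXO3 probe may also bind the near-identical copy FOXO3B, and the FOXO3 difference was 0.36 with all probes averaged, while that of TFAP2A was -0.39. Of 8 Polycomb and other regulators of the CDKN2A locus detected on both arrays 0 were called, with SUZ12 at 0.61, BMI1 at 0.48 and ID1 at -0.45. KDM6A, a histone demethylase that opposes Polycomb, passed detection only on the knockdown-labelled array and was at least 2.17-fold higher there, and CBX7, a Polycomb subunit, at least 1.10-fold.

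**Figure D4:**
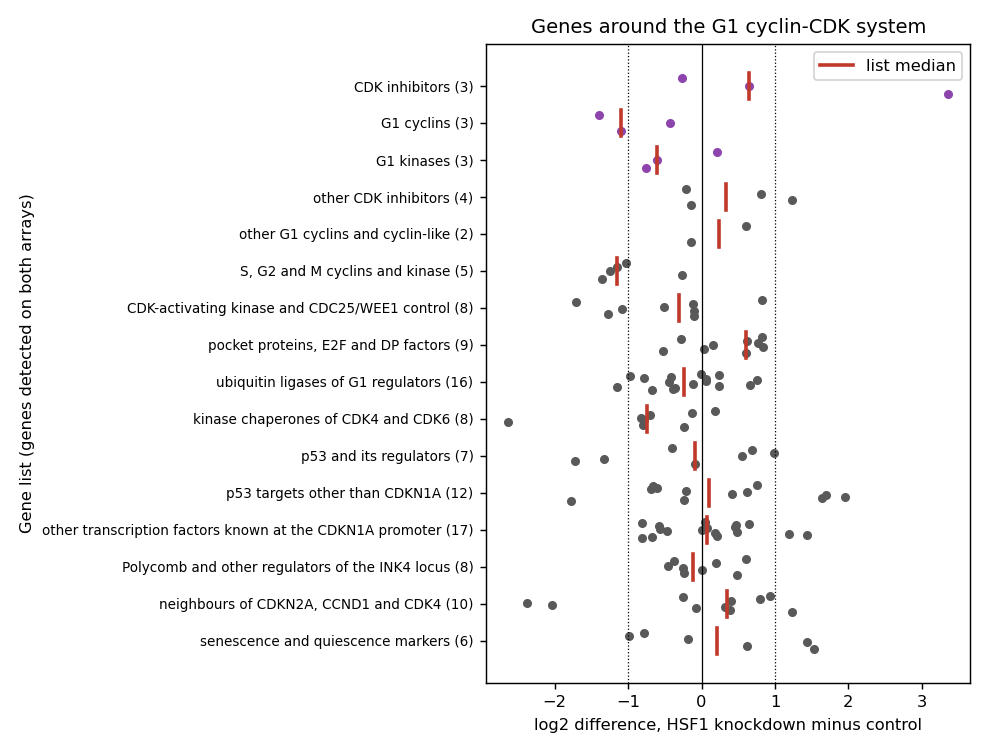
Log2 difference (HSF1 knockdown-labelled minus control) of each gene detected on both arrays, by list, with the 9 measured genes in purple, other genes in grey, red bars at list medians, dotted lines at 2-fold and the number of genes in brackets. The S, G2 and M list has its median at -1.15, the pocket protein and E2F list at 0.61, and the p53 targets lie on both sides of 0.

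Genes near CCND1 and CDK4 on the chromosome had differences in both directions. Near CCND1, LTO1 lay at 0.31, FADD at -0.08, PPFIA1 at 0.80 and CTTN at 0.38, although other detected probes ran down to -0.12 for PPFIA1 and -0.30 for CTTN, against -1.09 for CCND1 itself. Next to CDK4, TSPAN31 lay at 0.94, and 3 genes away METTL1, a tRNA methyltransferase, lay at -2.03, against -0.60 for CDK4. OS9, also 3 genes away, lay at 0.40, and TSFM, 5 genes away, at -0.25. METTL1 was at -1.03 with all its probes averaged. Of 6 genes often read as signs of senescence or of cycling and detected on both arrays, 2 were higher, 0 lower and 4 within 2-fold. CCN1 (1.54), a matricellular protein, and GLB1 (1.44), the lysosomal beta-galactosidase, were higher, and LMNB1, lamin B1, lay at -0.99. MKI67, the proliferation marker, was detected on the control array alone, with the knockdown-labelled array at least 1.70-fold lower. CXCL8 was detected on the knockdown-labelled array alone, at least 6.86-fold higher there. The other secreted markers of this list, IL6, IGFBP3 and IGFBP7, were detected on neither array, and nor was HMGA2. Of the 6 genes detected on both arrays, 3 lay above 0 and 3 below, with HMGA1 at -0.19.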

How the data were processed

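Total RNA of 2 KYN2 lines was hybridised to 1 Illumina HumanWG-6 array each. Per the file headers, the non-normalized table holds signals and detection values of 48802 probes. The deposited signals are linear intensity values without a recorded background step. The deposited detection values are a fraction that rises with the signal and were taken as the complement of the detection p. The authors' processed table holds log2 values of unstated baseline, used for differences only (r = 0.996 and slope 0.981 against the log2 signal ratio, across 10804 probes). Array software is not given in the sources used here.

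Probe names came from a platform annotation of 2016. The 13 probes with several symbols and the 21212 with none were not used, which left 27577. Signals were processed over the whole table with the neqc function (limma 3.58.1, R 4.3.3; offset 16, quantile normalization, log2). The offset understates folds of dim genes. Groups came from the labels. The members, lists and rules were chosen with earlier results of these data known. All members were named, and up to 3 genes per list by absolute difference among those detected on both arrays. Genes named otherwise were chosen after their values were seen. For a gene detected on 1 array, the fold is a bound: its level there over that gene's level on the other array, or over the lowest level detected on that array where this is higher. The steps were tested on simulated data. With 1 array per group no test was possible, and the number of arrays limits the precision. Alternatives covered background correction, normalization, the authors' values, detection, probe choice and the fold called.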

Additional observations from a re-analysis of the deposited data

How the results depend on the processing

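The 9 genes kept their sign under all 9 alternatives, and CDKN1A, CCND1 and CCNE1 stayed past 2-fold in each. The alternatives of detection and of the fold called reuse the same levels, so they could not change the difference of any gene. Averaging probes could not change that of a gene with 1 probe, such as CCND1. The CDKN1A difference of 3.36 was 2.89 without background correction, 2.95 with an offset of 50, 2.86 in the authors' processed values and 1.93 with the mean of all probes, which averages in an undetected probe. CCND1 ran from -1.23 to -1.04, CCNE1 from -1.50 to -1.06 and CDK2 from -0.99 to -0.72, and the median over the 9 genes from -0.57 to -0.40. At 1.5-fold in place of 2-fold, 2 genes were higher and 4 lower, against 1 and 2. The added ones were CDKN1B, CDK2 and CDK4, and over all genes detected on both arrays the counts were then 1562 higher and 1676 lower, against 743 and 779. At 2-fold with no detection filter, 1220 genes were higher and 1080 lower, of 18665. Among other named genes, CDC25C and CDK1 stayed past 2-fold in 6 of 9 alternatives, and CHEK2, FOXO3 and GLB1 in 8 of 9. CDC25C and CDK1 fell short without background correction, at -0.95 and -0.97 in that order. They also did so with an offset of 50 (-0.97 and -0.98) and in the authors' processed values (-0.94 and -0.97). The cause was not tested. With detection at 0.05 or with no filter, lists gained genes that one array did not detect: 1 and 3 lower pocket protein and E2F genes against 0, 2 lower ubiquitin ligase genes against 1, and 1 higher INK4-locus regulator against 0. At 0.05 the list of other G1 cyclins and related genes also had 1 higher gene against 0, and the other p53 targets 4 against 3. No replicate could be left out with 1 array per line. No paired analysis was possible because each line has 1 array. Signals near background limit CDKN1A on the control array and CCNE1 on the knockdown-labelled array. Some named genes outside the set also had a dim signal on 1 array, and their differences varied with the processing. Over the alternatives FKBP5 ran from -2.63 to -2.06, MTAP from -2.38 to -1.93, PKMYT1 from -1.72 to -1.18 and PERP from 1.28 to 1.75.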
